A study of Mus musculus with 30 samples.

Results

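Neurons of the embryonic forebrain are made from radial glia, either directly or through basal progenitors that divide away from the ventricle. Proneural factors of the basic helix-loop-helix (bHLH) family start this step by binding E-box motifs in DNA together with E proteins, and Notch signalling and Id proteins hold it back. The 9 genes described here act along this path. Neurog1 and Neurog2 are proneural factors of the dorsal forebrain. Neurod1, Neurod4 and Nhlh1 are bHLH factors that act after them in newborn neurons. Eomes, also called Tbr2, is the T-box factor that marks basal progenitors, Insm1 is a zinc finger factor that promotes their formation, and Btg2, also called Tis21, is an antiproliferative gene expressed in progenitors that are about to make neurons. Hes6 is a relative of the Notch effectors that promotes neuronal differentiation and counteracts Hes1.

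All 9 genes were found by symbol, with 1 row each, in the expression table of 53974 genes, and all 9 had a row in the explant table. RNA was sequenced from untreated C57BL/6 mouse forebrain at E13.5, in 1 library, and from neural stem and progenitor cells (NSPCs) grown out of such forebrain with EGF and FGF. The NSPCs, at passage 2 to 3, were kept for 24 h with MS-275 at 1 µM, with crotonate at 10 mM or with DMSO as control, with 4 libraries per group that the series calls biological replicates. MS-275 blocks the class I histone deacetylases, and crotonate is a fatty acid from which cells make the donor for histone crotonylation. Explants of ICR mouse forebrain of the same day were sequenced in 3 crotonate and 3 control libraries, whose dose and duration are not given in the sources used here, and DMSO is the only vehicle named for any group. Chromatin immunoprecipitation gave 1 peak list each for histone H3 crotonylated (H3K9cr) or acetylated (H3K9ac) at lysine 9 in forebrain, and for crotonyl-lysine (Kcr) and acetyl-lysine (Kac) in NSPCs after MS-275, crotonate or DMSO.

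Levels are given in TPM, a transcript abundance scaled for transcript length and library size that carries no read depth, so the precision of each library is not known from counts. The NSPC libraries had markers of neural progenitors, and of glial lineages as well. Summed over 9 radial glia genes, levels were 2177 TPM in forebrain, 13562 to 14235 TPM with MS-275, 9017 to 9904 TPM with crotonate and 9635 to 10169 TPM in controls, and no gene of the list was under 1 TPM in every NSPC library. Vim and Fabp7 carried most of this sum, with means of 3671 and 4946 TPM in controls, and 3 other genes of the list were lower in NSPCs, Pax6 at 112 TPM in forebrain and a mean of 24.7 TPM in controls, Hes5 at 53.8 and 11.1 TPM, and Prom1 at 46.6 and 8.51 TPM. With MS-275 against control 3 of the 9 were higher and 3 lower, with a median log2 fold change of -0.02. The oligodendrocyte lineage factor Olig2 stood at 30.4 TPM in forebrain, and at a mean of 676 TPM with MS-275, 648 TPM with crotonate and 614 TPM in controls. A list of 5 oligodendrocyte precursor genes, Olig2 among them, summed to 37.6 TPM in forebrain and 1697 to 1896 TPM in control NSPCs. Olig1 carried most of the latter, with a mean of 1140.3 TPM against 3.79 TPM in forebrain. A list of 4 astrocyte genes summed to 4.38 TPM in forebrain and 47.5 to 58.6 TPM in control NSPCs. A list of 10 genes of postmitotic neurons, of which 2 were under 1 TPM in every NSPC library, summed to 3548 TPM in forebrain, 354 to 378 TPM with MS-275, 263 to 289.7 TPM with crotonate and 314 to 336 TPM in controls. Map2 carried most of the NSPC sums, with means of 318 TPM with MS-275, 244 TPM with crotonate and 303 TPM in controls. It stood at 657 TPM in forebrain. The NSPC sums therefore follow Map2, and the direction of the other genes of this list is given further on. The 5 globin genes listed took 11531 TPM of the forebrain library and at most 1.2 TPM of any NSPC library. In such bulk samples fewer cells of a type and less RNA per cell cannot be told apart, and what these other cell types add to the values below was not tested.

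The promoters of 4 of the genes are shown because histone peaks covered them in full in forebrain, as described further on. Each is the RefSeq stretch on GRCm38.p6 from 250 bases before to 50 bases after the start site, written along the strand of the gene, and capitals mark the E-box CANNTG, which reads the same on both strands. Of the 9 genes 8, all but Insm1, were matched by symbol.
Neurog2, chr3:127632886-127633185, plus strand: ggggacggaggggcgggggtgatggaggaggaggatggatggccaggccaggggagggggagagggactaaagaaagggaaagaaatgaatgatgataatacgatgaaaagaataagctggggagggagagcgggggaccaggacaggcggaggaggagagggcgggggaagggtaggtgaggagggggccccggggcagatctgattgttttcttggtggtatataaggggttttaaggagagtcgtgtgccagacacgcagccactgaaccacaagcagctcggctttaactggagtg
Neurod1, chr2:79456587-79456886, minus strand: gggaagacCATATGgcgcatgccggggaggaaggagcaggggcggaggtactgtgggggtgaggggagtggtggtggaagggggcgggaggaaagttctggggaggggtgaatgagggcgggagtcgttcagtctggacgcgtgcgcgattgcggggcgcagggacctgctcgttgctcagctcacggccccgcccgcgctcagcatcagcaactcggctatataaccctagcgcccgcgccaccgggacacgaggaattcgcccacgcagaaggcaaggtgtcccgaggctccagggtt
Hes6, chr1:91413989-91414288, minus strand: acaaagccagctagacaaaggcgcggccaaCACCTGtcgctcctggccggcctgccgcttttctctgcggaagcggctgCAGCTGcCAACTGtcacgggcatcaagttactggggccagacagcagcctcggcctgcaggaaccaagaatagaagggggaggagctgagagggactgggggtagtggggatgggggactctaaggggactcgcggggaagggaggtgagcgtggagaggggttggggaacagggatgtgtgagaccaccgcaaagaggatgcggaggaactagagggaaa
Btg2, chr1:134079106-134079405, minus strand: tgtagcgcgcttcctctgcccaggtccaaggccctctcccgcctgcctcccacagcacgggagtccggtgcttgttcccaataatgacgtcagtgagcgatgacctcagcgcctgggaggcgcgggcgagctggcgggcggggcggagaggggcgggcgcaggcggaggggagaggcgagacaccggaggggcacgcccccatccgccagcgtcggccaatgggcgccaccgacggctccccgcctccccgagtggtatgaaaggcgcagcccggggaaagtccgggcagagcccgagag

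Hes6 held 3 E-boxes in this window, whose first bases lie at -220, -171 and -164 from the start site, and Neurod1 held 1, at -242. Neurog2 and Btg2 held none. Among the other members matched, Nhlh1 held 2 and Neurog1 held 1, while Eomes and Neurod4 held none, so that 4 of 8 had the motif, against 72.1% of the 27025 promoters in the table. The form CAGATG, bound by Neurog and Neurod factors, stood in the Nhlh1 promoter, and in 17.3% of all promoters. This form is among the E-boxes counted above. The N-box CACNAG, a motif of Hes repressors searched on both strands, was found in Neurog2, Neurod1, Neurod4 and Eomes, and in 42.6% of all promoters. CCAAT, also searched on both strands, was found in Neurog1, Eomes, Nhlh1 and Btg2, and in 38.0% of all promoters.

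All 9 genes were higher in forebrain than in control NSPCs, by at least 1 on the scale of log2(TPM + 1) used for every difference in TPM here. Of the 16448 genes with at least 1 TPM in forebrain or in 4 NSPC libraries, 24.0% were. The forebrain values come from a single library and have no test. Hes6 stood at 163 TPM in forebrain and 64.8 ± 3.64 TPM in controls (SD, n = 4), Eomes at 113 TPM and 0.219 ± 0.126 TPM, and Neurog2 at 105 TPM and 0.116 ± 0.121 TPM. The difference passed 5 for 3 genes, Neurog2 with 6.58, Eomes with 6.55 and Nhlh1 with 5.09, and for 0.468% of all genes. It was smallest for Btg2, with 1.05, Hes6, with 1.32, and Neurod4, with 1.87. In forebrain the levels ran from Hes6 over Eomes, Neurog2, Insm1 (101 TPM), Btg2 (72.7 TPM), Neurod1 (51.5 TPM), Nhlh1 (36.1 TPM) and Neurog1 (12.1 TPM) to Neurod4 (4.17 TPM). In control NSPCs the order was Hes6, Btg2, Insm1, Neurod1 and Neurod4, with libraries that did not overlap between any of these neighbours. Below Neurod4 came Eomes, Neurog1, Neurog2 and Nhlh1, where the libraries of each neighbouring pair overlapped, Neurod4 and Eomes included. Among the 4 highest genes, Hes6 and Btg2 overlapped with MS-275, and Insm1 and Neurod1 with crotonate.

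**Figure D1:**
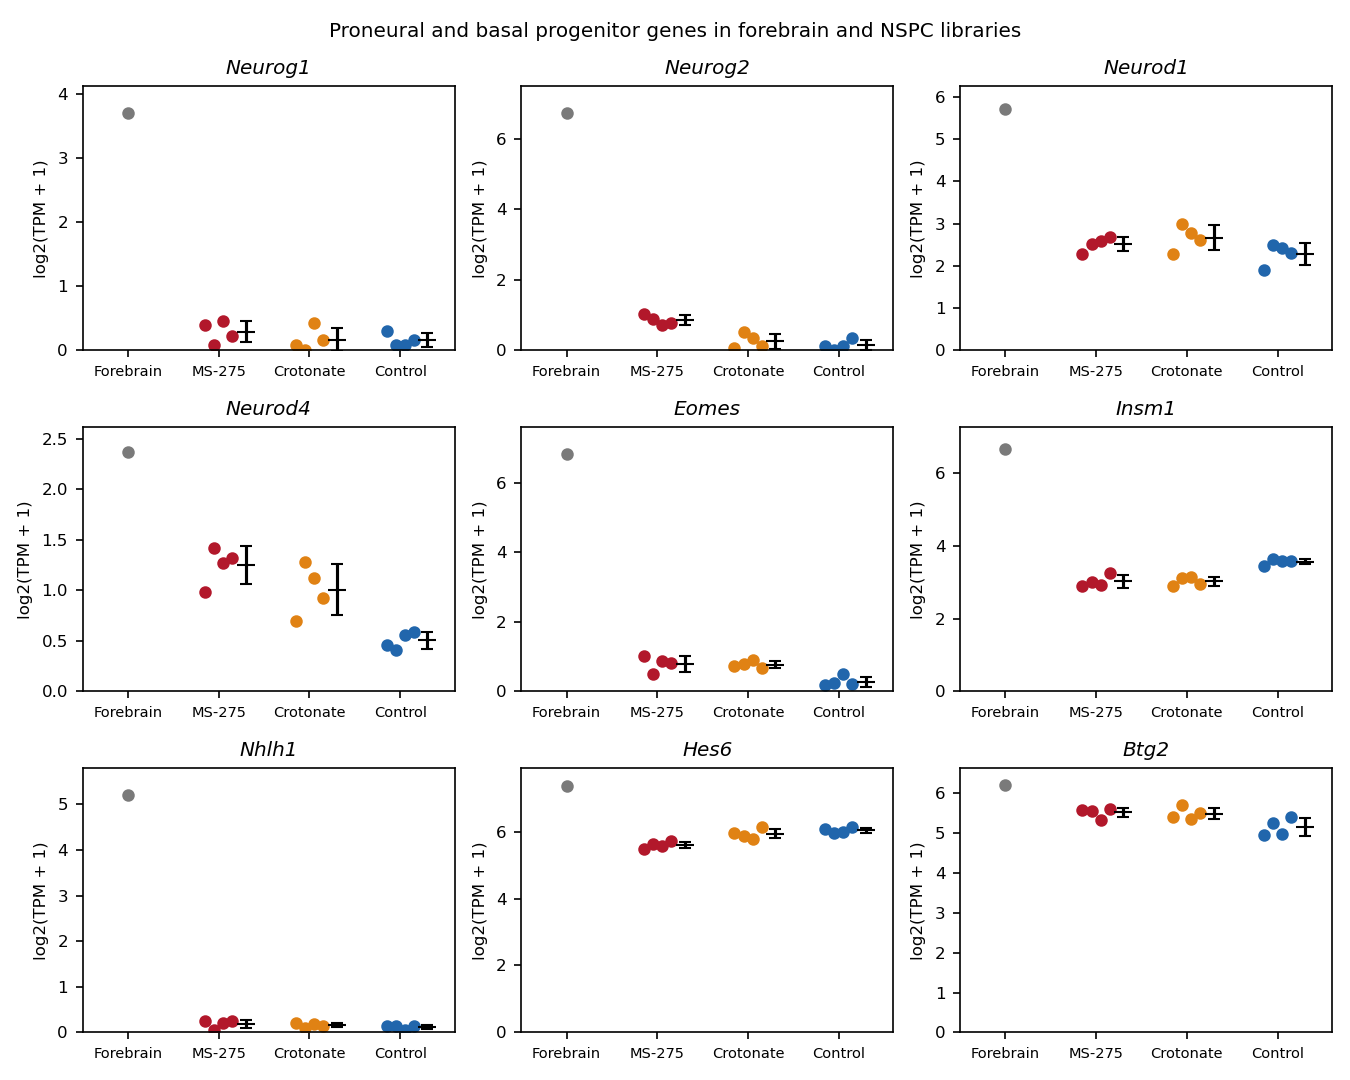
Level of each of the 9 genes on the scale log2(TPM + 1), with 1 panel per gene and its own axis from 0. Each point is 1 library, in forebrain (1 library) and in NSPCs with MS-275, crotonate or DMSO (4 libraries each), and the black marks give the mean and SD of the 4. The forebrain point is the highest in every panel, and among NSPC groups Insm1 is lower in all 8 treated libraries than in any control.

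A gene was tested if 4 or more NSPC libraries reached 1 TPM, which left 14857 genes. Neurod1, Insm1, Hes6 and Btg2 reached 1 TPM in all 12 libraries. Neurod4 passed through the treated cells alone, with 3 MS-275, 2 crotonate and no control libraries at 1 TPM, so that a rise was built into its selection, and its p-values are taken from a limma fit of every gene above 0. Neurog1, Neurog2, Eomes and Nhlh1 did not pass, and are given with a two-sided exact permutation test of 4 against 4 libraries, which cannot give a p under 0.0286 and was run 12 times, and with the same fit of every gene above 0. The limma p-values set each difference against the spread between these libraries within groups, as estimated with a trend over all genes. The exact permutation p-values set the difference against those of the 70 ways to split the libraries compared.

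Neurog2 was near 0 in control cells and higher with MS-275. Its levels were 1.05, 0.864, 0.647 and 0.7 TPM with MS-275, 0.0489, 0.447, 0.263 and 0.0874 TPM with crotonate, and 0.0911, 0, 0.0863 and 0.286 TPM in controls. All 4 MS-275 libraries lay above all 8 others, while the crotonate and control libraries overlapped. MS-275 exceeded control by 0.70 (exact permutation p = 0.0286, adjusted p = 0.000497 by limma without the filter, where 35.6% of 28631 genes were called). It exceeded crotonate by 0.59 (exact permutation p = 0.0286, limma adjusted p = 0.00318, with 23.1% of genes called), and crotonate against control gave 0.11 with a 95% interval of -0.14 to 0.37 (limma adjusted p = 0.583). With a pseudocount of 0.1 TPM, which shrinks such low values less, MS-275 exceeded control by 2.23 and crotonate by 1.72 (limma adjusted p = 0.00303 and 0.0239). Forebrain stood at 105 TPM, against a mean of 0.814 ± 0.180 TPM with MS-275 (SD, n = 4). Neurog1 was at 0.317, 0.0634, 0.372 and 0.175 TPM with MS-275, at 0.0643, 0, 0.348 and 0.115 TPM with crotonate, and at 0.241, 0.0581, 0.0568 and 0.124 TPM in controls. The 3 groups overlapped, with differences of 0.13 (95% interval -0.10 to 0.36) for MS-275 and 0.01 (-0.22 to 0.24) for crotonate against control.

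Eomes was higher with both compounds, at levels of about 1 TPM and below. It was at 1.04, 0.407, 0.82 and 0.756 TPM with MS-275, at 0.664, 0.711, 0.853 and 0.575 TPM with crotonate, and at 0.137, 0.185, 0.406 and 0.149 TPM in controls. The treated libraries lay above all controls, although the lowest with MS-275, at 0.407 TPM, barely passed the highest control, at 0.406 TPM. The difference was 0.52 with MS-275 (exact permutation p = 0.0286, limma adjusted p = 0.00389 without the filter) and 0.48 with crotonate (exact permutation p = 0.0286, limma adjusted p = 0.00984, with 24.1% of genes called). After quantile normalization neither was called (0.30 with MS-275 and 0.32 with crotonate, limma adjusted p = 0.0905 and 0.0892), and with a pseudocount of 0.1 TPM they were 1.44 and 1.39 (limma adjusted p = 0.00617 and 0.0119). MS-275 and crotonate differed by 0.04, with a 95% interval of -0.22 to 0.29. In the annotation Eomes overlaps the predicted gene Gm33408, and reads of the overlap cannot be assigned without strand.

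Among the bHLH factors that follow, Neurod4 was higher with both compounds. Its levels were 0.977, 1.68, 1.41 and 1.49 TPM with MS-275, 0.624, 1.43, 1.18 and 0.893 TPM with crotonate, and 0.377, 0.326, 0.476 and 0.503 TPM in controls. Every treated library lay above every control. The difference was 0.74 with MS-275 (SE 0.14, limma with Benjamini-Hochberg adjusted p = 0.00105 without the filter) and 0.50 with crotonate (SE 0.14, limma adjusted p = 0.0194 without the filter). The second was no longer called without control replicate 2, crotonate replicate 2 or crotonate replicate 3 (limma adjusted p = 0.0553, 0.0546 and 0.0537). The pseudocount shrinks such low values, and with 0.1 TPM in its place the differences were 1.51 with MS-275 and 1.08 with crotonate, both still called (limma adjusted p = 0.00147 and 0.0191). After quantile normalization, which put the median of all genes at -0.05 for each compound, against 0.08 for MS-275 and 0.09 for crotonate as deposited, the values for Neurod4 were 0.22 with MS-275 and 0.06 with crotonate, neither of them called (limma adjusted p = 0.267 and 0.807). Quantile normalization of every gene above 0 gave 0.42 with MS-275 and 0.27 with crotonate (limma adjusted p = 0.0417 and 0.23).

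Neurod1 was at 3.89, 4.72, 4.97 and 5.43 TPM with MS-275, at 3.86, 7.01, 5.88 and 5.15 TPM with crotonate, and at 2.75, 4.6, 4.34 and 3.91 TPM in controls. In both treated groups 3 of 4 libraries lay above all controls, and replicate 1 was the lowest in every group. The log2 fold change of 0.40 with crotonate (SE 0.16) missed the threshold (limma adjusted p = 0.0649), but passed it with the replicate number as a block (limma adjusted p = 0.00952) and without crotonate replicate 1 (0.53, limma adjusted p = 0.0161). With MS-275 it was 0.24 (SE 0.16, limma adjusted p = 0.217, and 0.0589 with the block). Both values turned negative after quantile normalization, -0.03 with crotonate and -0.23 with MS-275. Nhlh1 stayed between 0.0346 and 0.195 TPM in all 12 libraries, with overlapping groups and differences from control of 0.06 for MS-275 (95% interval -0.04 to 0.17) and 0.04 for crotonate (-0.07 to 0.15).

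Insm1 fell with both compounds by nearly the same amount. It was at 6.44, 7.01, 6.69 and 8.65 TPM with MS-275, at 6.48, 7.74, 7.84 and 6.79 TPM with crotonate, and at 10.0, 11.5, 11 and 11.1 TPM in controls. All 8 treated libraries lay below all 4 controls. The log2 fold change was -0.55 with MS-275 (SE 0.09, limma adjusted p = 0.000217) and -0.54 with crotonate (SE 0.09, limma adjusted p = 0.000461), ratios of mean TPM of 0.660 and 0.661. The difference between MS-275 and crotonate was -0.01 (95% interval -0.21 to 0.20).

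Btg2 rose modestly with both. Its levels were 47.1, 46.1, 39.6 and 47.7 TPM with MS-275, 41.6, 51.0, 40.5 and 44.2 TPM with crotonate, and 30.2, 37.5, 30.5 and 41.7 TPM in controls. The groups overlapped, since control replicate 4, at 41.7 TPM, was above 1 MS-275 and 2 crotonate libraries. Each treated library lay above the control of the same replicate number. The log2 fold change was 0.37 with MS-275 (SE 0.11, limma adjusted p = 0.00897) and 0.34 with crotonate (SE 0.11, limma adjusted p = 0.0194). In this fit without a block, the crotonate call was lost without control replicate 1, control replicate 3 or crotonate replicate 2 (limma adjusted p = 0.0593, 0.0602 and 0.0609). MS-275 against crotonate gave 0.03 (95% interval -0.21 to 0.26). With the replicate number as a block the SE was 0.07 for each compound against control (limma adjusted p = 0.00178 with MS-275 and 0.00442 with crotonate).

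Hes6, with the highest mean level of the 9 in every group, set the compounds apart. It was at 43.8, 48.4, 46.5 and 51.3 TPM with MS-275, at 61.2, 57.9, 54.4 and 69.0 TPM with crotonate, and at 66.7, 61.0, 62.6 and 69.0 TPM in controls. All MS-275 libraries lay below all others, and crotonate overlapped control. The log2 fold change was -0.44 with MS-275 against control (SE 0.07, limma adjusted p = 0.000152) and -0.34 with MS-275 against crotonate (SE 0.07, limma adjusted p = 0.00195). Crotonate against control gave -0.10 with a 95% interval of -0.26 to 0.06 (limma adjusted p = 0.284).

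Counted over the 5 members tested, MS-275 had 2 higher, 2 lower and 1 not called. Of all 14857 genes 65.1% were called, 37.4% of all genes in the higher and 27.6% in the lower direction. Crotonate had 2 higher, 1 lower and 2 not called, against 48.1% called, 32.3% higher and 15.9% lower. With the replicate number as a block Neurod1 was called higher with crotonate as well (limma adjusted p = 0.00952), where 7450 genes were called. MS-275 against crotonate had 1 lower, Hes6, the 1 member whose groups did not overlap, against 46.7% called (19.3% higher and 27.4% lower) and 43.3% without overlap. Groups did not overlap for 3 of the 5 with MS-275 and 2 with crotonate, against 58.5% and 44.2% of all genes. The median log2 fold change of the 5 was 0.24 with MS-275 and 0.34 with crotonate, where that of all genes was 0.08 and 0.09, and after quantile normalization that of the 5 was -0.23 and -0.03. With only 5 genes, of which Neurod4 was selected by its treated level, nothing is read from these counts about the members as a set.

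In the forebrain explants the 3 members that are bHLH factors of newborn neurons were higher with crotonate. The table names crotonate before control in its title only, and this direction is taken from there. The authors' deposited table gives Nhlh1 a log2 fold change of 0.52 (SE 0.07, adjusted p = 5.79e-12 by DESeq2), Neurod1 one of 0.45 (SE 0.06, DESeq2 adjusted p = 1.01e-11) and Neurod4 one of 0.70 (SE 0.24, DESeq2 adjusted p = 0.0245). The authors' deposited table has Insm1 lower, at -0.16 (SE 0.05, DESeq2 adjusted p = 0.012). In the authors' deposited table the other 5 were not called, with -0.10 for Neurog2 (DESeq2 adjusted p = 0.0626), -0.11 for Hes6 (0.0624), -0.14 for Btg2 (0.105), -0.01 for Eomes (0.943) and 0.05 for Neurog1 (0.943). The 3 higher and 1 lower of 9 stood beside 20.2% of 14507 genes called in the authors' deposited table, 10.5% higher and 9.75% lower, and at a threshold of 0.01 Neurod4 and Insm1 lost their call. Of relatives outside the 9, Nhlh2 was at -0.13 in the authors' deposited table and not called (DESeq2 adjusted p = 0.211). Neurod2 and Neurod6 were higher there, at 0.17 and 0.21 (DESeq2 adjusted p = 3.43e-14 and 2.62e-24).

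In the authors' deposited table the mean normalized counts were 963 for Neurod1, 591 for Nhlh1 and 63.3 for Neurod4, against 2639 for Eomes and 2597 for Neurog2, so that Neurod4 was the member with the fewest normalized counts, and with the widest SE but for Neurog1 (81.1 counts, SE 0.27). Other cell types moved in the same comparison. With crotonate 10 of 11 ventral forebrain and GABAergic markers and 4 of 4 Cajal-Retzius markers were lower in the authors' deposited table, with a median log2 fold change of -0.43 and -0.66, and 4 of 5 globin genes were lower with a median of -0.44. Of 9 radial glia markers 5 were lower and 1 higher in the authors' deposited table, with a median of -0.13 and with Sox2 at -0.33 and Hes5 at -0.62, and 2 of 3 mesenchymal and pericyte markers were lower. Of 10 neuronal markers 4 were higher and 3 lower in the authors' deposited table, and their part in the values of the members was not tested.

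Insm1 was lower with crotonate in both systems, at -0.54 in NSPCs and at -0.16 in the authors' deposited table for explants. Btg2, called higher with crotonate in NSPCs at 0.34, was at -0.14 in the authors' deposited table and not called. Eomes, under the filter in NSPCs and at 0.48 there in the fit without it, was at -0.01 in the authors' deposited table and not called. Whether the systems differ was not tested, because strain, tissue and fit differ as well.

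**Figure D2:**
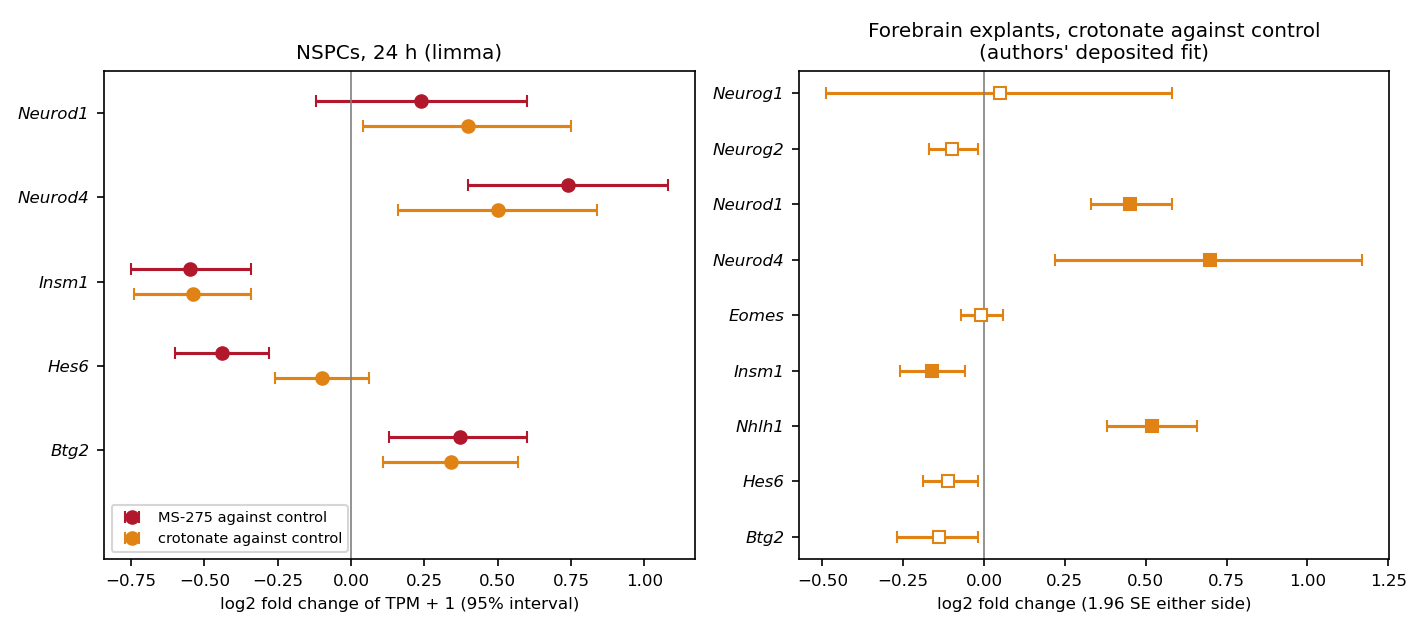
Log2 fold change of the members. The left panel gives MS-275 and crotonate against control in NSPCs for the 5 genes tested (Neurod4 through its treated libraries), on the scale of TPM + 1, with 95% intervals, and the right panel gives crotonate against control in explants for all 9, from the authors' deposited table, with 95% intervals from its SE and filled symbols where the adjusted p is under 0.05. Insm1 lies left of 0 in all 3 comparisons, and the Hes6 interval in NSPCs lies left of 0 with MS-275 and crosses 0 with crotonate.

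The counts of the lists that follow stand beside 37.4% of all genes higher and 27.6% lower with MS-275, and 32.3% higher and 15.9% lower with crotonate, and nothing is read from a share near these. Of the E proteins, which pair with proneural factors, Tcf12 fell with both compounds, to 103 ± 2.98 TPM with MS-275 and 108 ± 8.03 TPM with crotonate, against 137 ± 9.21 TPM in controls (SD, n = 4 each; log2 fold change -0.41 and -0.33, limma adjusted p = 4.68e-05 and 0.000495). Tcf3 fell by 0.45 with MS-275 (limma adjusted p = 1.92e-06), and Tcf4 fell by 0.17 with crotonate (limma adjusted p = 0.0205, not called after quantile normalization). Among the Id genes, whose products bind E proteins and keep them from DNA, Id2 rose with crotonate by 0.62 (limma adjusted p = 0.000425) and Id3 with MS-275 by 0.33 (limma adjusted p = 0.00579). In all, 1 of 7 partners and Id genes was higher and 2 were lower with MS-275, and 1 was higher and 3 were lower with crotonate (1 and 1 after quantile normalization), with a median of -0.05 for each.

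In the Notch pathway, 4 of 10 tested genes were higher and 1 was lower with MS-275 (3 and 2 after quantile normalization), beside 37.4% and 27.6% of all genes, and 3 were higher and none lower with crotonate (2 and 1 after either other scaling), beside 32.3% and 15.9%, with medians of 0.14 and 0.11. Mfng, a glycosyltransferase that modifies Notch receptors, rose by 1.42 with MS-275 and 1.01 with crotonate (limma adjusted p = 2.93e-06 and 0.000128), to 13.6 ± 1.60 TPM and 10.1 ± 1.64 TPM, against 4.53 ± 1.07 TPM in controls. Lfng, of the same family, rose by 0.48 with MS-275 (limma adjusted p = 3.31e-05). Dll3, a ligand-like protein that inhibits Notch within the cell, rose by 0.47 and 0.46 (limma adjusted p = 0.00207 and 0.00383), with both calls lost after quantile normalization. Hes1, the effector that Hes6 counteracts, fell by 0.34 with MS-275 (limma adjusted p = 0.00895), as Hes6 did.

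**Figure D3:**
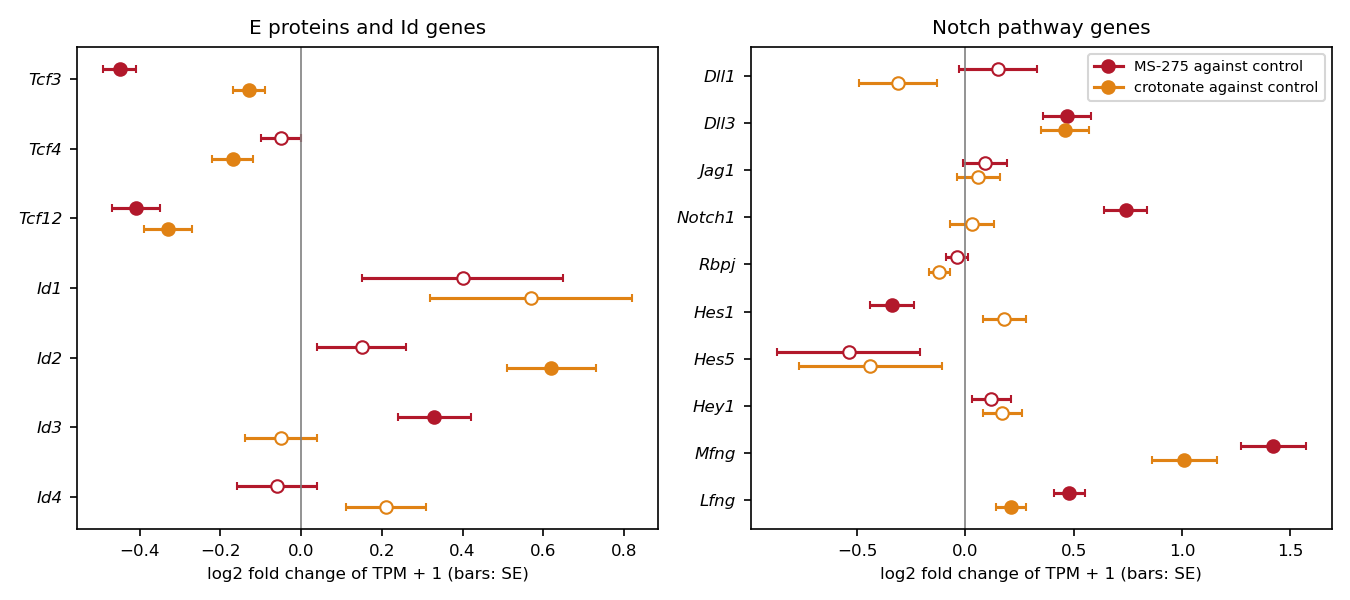
Log2 fold change on the scale of TPM + 1 in NSPCs for E proteins and Id genes (left) and for tested Notch pathway genes (right), with MS-275 against control in red and crotonate against control in orange, bars for the SE and filled symbols where the limma adjusted p is under 0.05. Mfng has the largest value in the right panel, 1.42 with MS-275, and Tcf12 is lower with both compounds in the left panel.

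Genes known to act downstream of proneural factors included 12 tested, of which 7 were higher and 3 lower with MS-275, beside 37.4% and 27.6% of all genes, and 5 were higher and 2 lower with crotonate, beside 32.3% and 15.9%, with medians of 0.27 and 0.20. After quantile normalization the split was 4 and 3 with MS-275, and 3 and 2 with crotonate. Rnd2, a small GTPase through which Neurog2 drives migration, rose by 1.05 with MS-275 to 36.7 ± 2.97 TPM, against 17.1 ± 1.20 TPM in controls (limma adjusted p = 1.79e-07). Its relative Rnd3 fell by 0.40 with MS-275 and by 0.39 with crotonate (limma adjusted p = 0.00366 and 0.00705). Elavl4, a neuronal RNA-binding protein, fell by 0.90 with MS-275 (limma adjusted p = 1.12e-07), and Myt1, a neurogenic zinc finger factor, fell by 0.53 with crotonate (limma adjusted p = 0.00306). Mfng and Dll3 belong to this list too.

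Of 4 tested genes among other basal progenitor genes, 3 were higher with MS-275 (1 after quantile normalization) and 1 with crotonate, with medians of 0.52 and 0.14. Smoc1 rose by 0.60 and Rhbdl3 by 0.44 with MS-275 (limma adjusted p = 0.000182 and 0.00111), the second not called after quantile normalization, and Gadd45g rose by 0.45 with crotonate (limma adjusted p = 0.00506). Among other neural bHLH factors 4 were tested, with 2 higher and 1 lower with MS-275 and 1 higher with crotonate (none higher and 1 lower after median-of-ratios scaling), and medians of 0.29 and 0.10. Olig1 rose by 1.01 with MS-275 (limma adjusted p = 3.28e-08), and Olig2 by 0.14 with MS-275 and 0.08 with crotonate (limma adjusted p = 0.000842 and 0.0391), the last at 0.00 after median-of-ratios scaling. Neurod2 and Neurod6, at 172 and 329.5 TPM in forebrain, were under 1 TPM in each NSPC group mean.

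Paralogs of the members were followed for comparison, 6 of them tested, with 3 higher and 1 lower with MS-275 (3 and 2 after quantile normalization), 2 higher with crotonate (1 after median-of-ratios scaling), and medians of 0.22 and 0.19. Btg3, of the same antiproliferative family as Btg2, rose more than Btg2, by 0.89 with MS-275 and 1.12 with crotonate (limma adjusted p = 1.52e-06 and 6.86e-07), to 29.7 ± 1.95 TPM and 35.4 ± 4.68 TPM, against 15.6 ± 0.962 TPM in controls. Btg1 rose by 0.89 with MS-275 (limma adjusted p = 6.34e-05), and Tob1 by 0.20 with crotonate (limma adjusted p = 0.0205, not called after median-of-ratios scaling). Markers of neurons moved beside these genes, with 5 of 7 tested higher with MS-275, and 6 higher and 1 lower with crotonate. After quantile normalization these splits were 4 and 1, and 2 and 1. Stmn2, counted as higher with both compounds as deposited, had means of 0.192 TPM in controls, 1.57 TPM with MS-275 and 1.04 TPM with crotonate. It passed the filter through treated libraries alone, as Neurod4 did, so that a rise was built into its selection. Tubb3 rose by 1.24 and Rbfox3 by 1.03 with MS-275, and Rbfox3 by 0.80 with crotonate (limma adjusted p = 6.44e-08, 1.06e-05 and 0.000199), the Rbfox3 values being 0.53 and 0.36 after quantile normalization. Map2, the most abundant of these markers in NSPCs, fell by 0.31 with crotonate (limma adjusted p = 4.5e-05). Astrocyte markers moved as well, with 3 of 4 higher with each compound (2 with crotonate after quantile normalization). Among them S100b rose with MS-275, to 12.8 TPM on average against 3.86 TPM in controls, and Aqp4 rose by 1.15 with crotonate (limma adjusted p = 4.97e-08 and 3.69e-05). Of 7 ventral forebrain and GABAergic markers tested, 1 was higher and 1 lower with MS-275, and 5 were higher with crotonate (1 after quantile normalization). Dlx2, counted as higher with each compound, passed the filter in the same way as Stmn2. Its means were 0.539 TPM in controls, 1.51 TPM with MS-275 and 1.68 TPM with crotonate. The endothelial receptor Kdr stood at 3.59 ± 0.323 TPM with MS-275 and 2.03 ± 0.336 TPM with crotonate, against 0.532 ± 0.185 TPM in controls (SD, n = 4 each). Kdr too passed the filter through treated libraries alone, and the other 3 endothelial markers listed were under 1 TPM in every NSPC library. The part of these cell types in the values of the members was not tested.

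The genes most like each tested member across the 12 NSPC libraries were sought by Pearson's r of log2(TPM + 1) among tested genes with a mean of at least 5 TPM. Hes6 was most like Cdkn2d (r = 0.965) and E4f1 (0.955), Neurod4 like Lmtk3 (0.960) and Gpc2 (0.958), and Insm1 like Plekhh3 (0.959) and Eif5 (0.950). Btg2 was most like Nlgn2 (0.950) and Fam189b (0.944), and Neurod1 like Rbfox2 (0.903) and Igsf21 (0.902). The points share treatment groups and libraries, and the r values describe the best matches among the 10562 or 10563 candidates searched for each member.

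Histone peaks were counted for a gene when they lay in it or within 1 kb of it, and the shares of all genes are over the 14860 genes with a RefSeq position and at least 1 TPM in forebrain or in 4 NSPC libraries. In forebrain, 7 of the 9 members had an H3K9ac peak, against 85.3% of all genes, and 5 had an H3K9cr peak, against 74.9%. Neurog2, Eomes, Insm1, Hes6 and Btg2 had both marks, and Neurod1 and Nhlh1 had H3K9ac alone, a state shared by 10.5% of all genes. With only forebrain peaks of a MACS2 -log10 q of at least 5, Nhlh1 lost its H3K9ac peaks, and 6 members still had one. Neurog1 and Neurod4 had no peak within 1 kb in any of the 8 lists, where 89.8% of all genes had one. The authors' fold enrichment in the H3K9ac list was 56.5 for the Btg2 peak, 36.1 for that of Hes6 and 27.2 for that of Insm1, against 7.85 for Neurog2, and at most 3.29 for the 2 peaks in Nhlh1. For H3K9cr it was 22.0 at Btg2, 16.0 at Insm1, 15.7 at Hes6, 6.72 at Neurog2 and at most 5.5 at Eomes.

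The Neurog2 promoter printed above lay in full within an H3K9cr peak of 1633 bases and an H3K9ac peak of 2709 bases in forebrain, and no peak of any NSPC list lay within 20 kb of the gene. The Neurod1 promoter lay in full within an H3K9ac peak of 643 bases, with a second peak of 1446 bases from 1261 to 2706 bases after the start site, and again no NSPC list had a peak within 20 kb. The group of genes with forebrain H3K9ac but no Kac peak in control NSPCs held 4 members and 18.0% of all genes. These were Neurog2, Neurod1, Eomes and Nhlh1, the last through peaks of a -log10 q under 5. Forebrain H3K9cr without a Kcr peak in control NSPCs was found for Neurog2 and Eomes, and for 18.4% of all genes. These antibodies differ, H3K9ac reading 1 residue and Kac any acetylated lysine, and each list is 1 library.

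In NSPCs the 3 members with more than 10 TPM in controls, Insm1, Hes6 and Btg2, had Kcr and Kac peaks in the control lists, against 61.1% and 69.2% of all genes. With MS-275 no member had a Kcr or Kac peak within 1 kb, against 22.4% and 24.3% of all genes in lists of 5845 and 7555 peaks, where the control lists held 17669 and 23427. With crotonate 2 members had a Kcr peak, Insm1 and Hes6, against 71.5% of all genes, and no member had Kcr peaks with crotonate while having none in controls, against 15.8%. For Kac, 4 members had a peak with crotonate, Eomes, Insm1, Hes6 and Btg2, against 67.1%.

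Btg2 was the 1 member with Kcr peaks in control cells and none within 1 kb with crotonate, a pattern of 5.50% of all genes. The control list had 3 Kcr peaks in the gene, of 219, 326 and 231 bases, between 0.184 and 2.15 kb after the start site, and the nearest crotonate Kcr peak lay 10.2 kb away. A cluster of Kcr peaks beyond the end of the gene was in all 3 lists, and within 20 kb of the gene there were 7 Kcr peaks with MS-275, 12 with crotonate and 13 in controls. Kac peaks lay in Btg2 or within 1 kb of it both with crotonate, 3 peaks covering 1003 bases, and in controls, 3 peaks covering 572 bases. In forebrain single peaks of H3K9cr (3267 bases) and H3K9ac (3893 bases) covered the whole printed Btg2 promoter, which no NSPC peak touched.

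Hes6 carried peaks at its start site in both crotonate and control cells. The crotonate Kcr peak of 513 bases covered all 300 bases of the printed promoter with its 3 E-boxes, and the control Kcr peak of 450 bases, which began 12 bases after the start site, covered 38. For Kac the order was the other way, with 84 bases covered by the crotonate peak and 151 by the control peak. In forebrain H3K9ac covered all 300 and H3K9cr 88. The forebrain H3K9ac peak and control peaks upstream of Hes6 lay within 1 kb of the neighbouring gene Per2 as well.

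Insm1 had 3 Kcr peaks within 1 kb with crotonate and 1 in controls, and 1 Kac peak with crotonate and 2 in controls. Distances at Insm1 are counted from its lower coordinate. The Kcr peak from 0.088 to 0.422 kb with crotonate overlapped the control peak from 0.077 to 0.459 kb, and the others, from -0.569 to -0.199 kb and from 1.04 to 1.43 kb, overlapped no control Kcr peak. The first of these contained a control Kac peak, from -0.413 to -0.238 kb. A second site, between -4.37 and -3.28 kb from this end, carried Kcr and Kac peaks in NSPCs with MS-275, with crotonate and in controls, and H3K9ac in forebrain.

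Eomes gained a Kac peak of 208 bases with crotonate, from 0.749 to 0.956 kb after the start site, in a place covered by H3K9ac in forebrain. A Kac peak with crotonate and none in controls was seen for 8.45% of all genes. No Kcr list of NSPCs had a peak within 20 kb of Eomes. Nhlh1 had a Kcr and a Kac peak 3.76 and 3.79 kb beyond its end with crotonate and none within 20 kb in the control lists, at a place that carried H3K9ac in forebrain. With 1 library per list, whether these peaks differ between treatments was not tested.

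**Figure D4:**
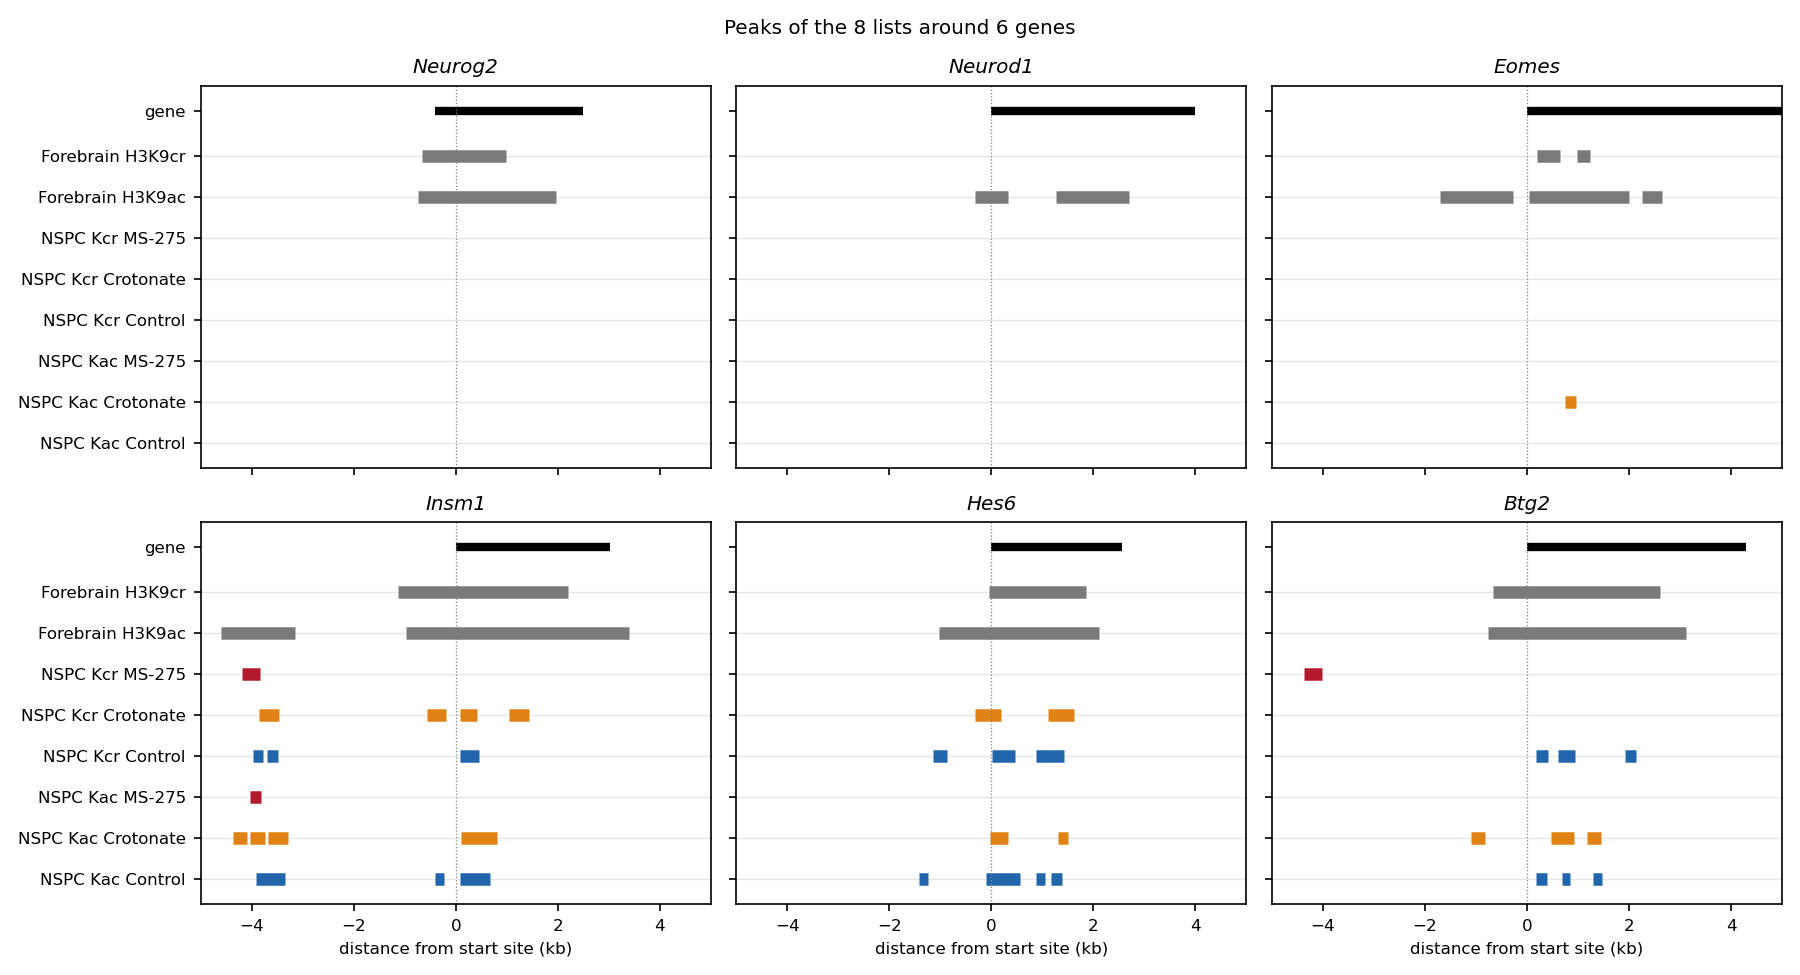
Peaks of the 8 lists within 5 kb of the start site of 6 members, with distance in kb along the gene on the horizontal axis (for Insm1, from its lower coordinate) and 1 row per list. Black bars give the gene, grey bars forebrain peaks, and red, orange and blue bars NSPC peaks with MS-275, crotonate and DMSO. Neurog2 and Neurod1 have forebrain peaks only, and Btg2 has Kcr peaks in the control row and none in the crotonate row.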

How the data were processed

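Salmon 1.0.0 and DESeq2 1.26.0 are named for RNA, MACS2 2.2.5 and Bowtie2 2.3.5.1 for chromatin, and GRCm38 as the build, per the submitters' processing notes. The authors deposited TPM values of 13 libraries in a single table without read counts, so depth is unknown. For the explants the authors deposited the mean of normalized counts (a signal), the log2 fold change with its SE, a test score, and p-values, and genes left without an adjusted p carry a 1 there. The forebrain lists hold a score, a fold enrichment (a ratio to control) and −log10 p and q of MACS2, as deposited by the authors. The NSPC lists hold deposited positions alone, so their calling threshold is unknown. All columns were mapped to samples and 0 were left unused.

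Samples were grouped by title. log2(TPM + 1) entered limma 3.58.1 under R 4.3.3, as 1 model of the 3 NSPC groups with eBayes and a trend, and Benjamini-Hochberg adjustment over 14857 genes at 0.05. The script was tested on simulated data. For members under the filter exact permutation tests are given unadjusted, since no adjustment over the members alone is made. Same-numbered libraries of different groups correlated after removal of group means, with r from 0.119 to 0.241 in 12 pairs, against -0.197 to 0.0993 in 36 pairs of other numbers, and the numbers were therefore read as pairs. The main model has no block, and the block is an alternative. Alternatives also covered the pseudocount, the filter, scaling, the trend, left-out libraries, the explant threshold and peak windows. Positions and promoters come from RefSeq (GRCm38.p6), with all 9 members placed. Tables and plots were made with matplotlib 3.10.9, SciPy 1.17.1, pandas 2.3.3 and Python 3.11.15.

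The members, gene lists and marker lists were chosen with earlier results of these data known. Besides the members, up to 2 genes per list, contrast and direction are named, those with the smallest adjusted p, and the 2 genes most like each tested member. Part of what this rule covers is not reported here. Neurod2, Neurod6, Nhlh2, Stmn2, Sox2 and Hes5 fall outside this rule and were named after their values were seen.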

Additional observations from a re-analysis of the deposited data

Results flagged for a closer look

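In 1 of the 27 groups of 4 NSPC libraries examined for the 9 genes, 1 library lay far from the other 3. Nhlh1 in control replicate 3 was at 0.0346 TPM, where the other controls lay between 0.105 and 0.11 TPM. Chance gives about 1 such group in 20. Nhlh1 is near 0 in all NSPC libraries, and no call rests on this value.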

How the results depend on the processing

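Of 270 fold changes of the 5 tested members under other settings, 252 kept their direction and side of the threshold. Quantile normalization turned Neurod1 to -0.03 with crotonate and -0.23 with MS-275, and removed both Neurod4 calls, and the cause was not tested. It also moved the split of called genes to 4396 higher and 5064 lower with MS-275 (5561 and 4107 as deposited) and to 3091 and 3685 with crotonate (4796 and 2356), for which median-of-ratios scaling gave 3982 and 3423. MS-275 against crotonate gave 0.05 for Insm1 after median-of-ratios scaling and ran from -0.09 to 0.04 with single libraries left out, and for Btg2 from -0.01 to 0.10. Without the filter, 224 of 240 differences of Neurog1, Neurog2, Neurod4, Eomes and Nhlh1 kept direction and side. Neurog1 with crotonate was -0.07 with a pseudocount of 0.1 TPM and after quantile normalization, which also gave -0.04 for Nhlh1 with MS-275, -0.03 with crotonate and -0.0025 between the compounds, and -0.02 for Eomes between them. With single libraries left out Neurog1 with crotonate ran from -0.08 to 0.07, and Eomes between the compounds from -0.04 to 0.14. The numbers of genes called stayed within 1.5 times the main count in all 54 settings, with 9136 to 9596 (MS-275), 6458 to 7082 (crotonate) and 6286 to 6999 (MS-275 against crotonate) when single libraries were left out.

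With the replicate block 9873, 7450 and 7236 genes were called, against 9668, 7152 and 6933 without it, and beside Neurod1 with crotonate the pairing changed no call of the 5 tested members. In fits without the filter, an alternative chosen after seeing the data, the block changed no call of Neurog1, Neurog2, Neurod4, Eomes or Nhlh1 either, and their exact permutation tests do not use the pairs. No paired analysis was possible because single libraries are not given for the explants. There 1996 genes passed 0.01, and 2502 passed 0.05 when adjusted over every gene with a p.

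With genes extended by 5 kb, 2 members had a Kcr and 1 a Kac peak with MS-275. Extended by 50 kb, 4 had a Kcr peak with MS-275, 6 with crotonate and 5 in controls, and 4 had a Kac peak with MS-275, 6 with crotonate and 5 in controls. Within 1 kb of an annotated start site, an alternative chosen after seeing the data, 1 member had a Kcr peak with crotonate, since Insm1 has no annotated start site in the table used and could not be counted. Shares of all genes were counted only for genes extended by 1 kb, so nothing about the members is read from these other windows. Depth is unknown for all libraries, and values under 1 TPM rest on few reads.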
